A study of Homo sapiens with 4 samples.

Results

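Cytosolic ribosomal protein genes encode the proteins that, with ribosomal RNA, build the small and the large subunit of the ribosome. They were taken as every protein-coding gene whose symbol is RPL or RPS with a number and an optional ending for a paralog, together with RPLP0, RPLP1, RPLP2 and RPSA. Pseudogenes, the RPS6K kinase genes and Y-linked genes were not taken. This gave 85 of the 78932 genes in the deposited table: 43 of the large subunit, 31 of the small subunit, 3 of the stalk and 8 paralogs. Of them 84 passed the filter on low counts. The exception was RPL10L, with 6 and 7 counts in the control libraries and 7 and 12 in the others.

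The cells were RPMI 8226, an established human multiple myeloma line, harvested 72 h after they were transfected. They received antisense oligonucleotides with locked nucleic acid (LNA) bases, chemically stabilised strands that lower the RNA they pair with. A group of 2 libraries had a control LNA, whose dose is not stated separately, and a group of 2 had an LNA against the noncoding RNA LINC01432 at 50 nM. All cells were therefore of 1 line, transfected, with no untransfected group, and a single LNA sequence stands for the loss of LINC01432. Whether each library stands for its own culture is not stated, so the p-values speak for the scatter of these 4 libraries alone, and that scatter may be technical. In bulk RNA, fewer cells of a kind and less RNA per cell cannot be told apart.

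Every ribosome needs each of its core proteins in about equal number, so their messages are made in large amounts and largely adjusted together. Most of these messages open with a C followed by a run of C and T, called the 5′ terminal oligopyrimidine (TOP) motif. Through this motif the mTOR kinase pathway and the RNA-binding protein LARP1 adjust their translation and stability. The stalk of the large subunit is made of P proteins, where P0 (RPLP0) anchors dimers of P1 and P2 (RPLP1, RPLP2) that recruit translation factors. Myeloma cells secrete antibody chains and carry a heavy load of protein synthesis.

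The annotated RNA starts of 6 genes are printed because they show this motif. RPLP2, RPLP1 and RPL13 rose in the results below, while RPLP0, RPL24 and RPS25 did not pass the test. No start was listed for RPL7, RPL8 and RPL39L, the other genes that passed it. Each window holds the 15 bases before the start and the 15 from it onward, on the transcribed strand, with the C and T run from the start in capitals (RefSeq, GRCh38.p14).
RPLP0: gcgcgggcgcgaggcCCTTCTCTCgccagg
RPLP1: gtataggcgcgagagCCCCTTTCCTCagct
RPLP2: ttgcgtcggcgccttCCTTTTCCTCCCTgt
RPL13: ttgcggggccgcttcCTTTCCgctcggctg
RPL24: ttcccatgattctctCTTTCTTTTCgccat
RPS25: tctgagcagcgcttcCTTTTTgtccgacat
These lie at chr12:120201097-120201126 (minus strand) for RPLP0, chr15:69452803-69452832 (plus) for RPLP1 and chr11:809952-809981 (plus) for RPLP2. They lie at chr16:89560667-89560696 (plus) for RPL13, of whose 3 listed starts this is the one with the motif, at chr3:101686704-101686733 (minus) for RPL24 and at chr11:119018329-119018358 (minus) for RPS25. All 6 hold C at the start and then at least 4 bases that are each C or T. The run was 13 bases long in RPLP2, 11 in RPLP1 and 9 in RPLP0, so the stalk genes that rose and the one that did not share it.

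RefSeq listed a start for 68 of the 85 genes, and 47 of these (69.1%) had the motif at 1 listed start each. Counted over start windows, 47 of 84 (56.0%) held it, against 1429 of 35116 windows of all genes (4.07%). It was searched on the transcribed strand only, and a match is a description of the letters. The median log2 fold change was -0.01 over the 47 genes with the motif and -0.09 over the 20 tested genes with a listed start and no motif, values given without a test.

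The libraries held 20873393 to 29161298 gene counts. LINC01432 itself had 20.5 and 17.9 CPM (counts scaled to the TMM-adjusted library size) with control LNA and 8.98 and 9.88 with LINC01432 LNA, so the groups did not overlap and the LNA's target was lower (log2 fold change -1.02, SE 0.11, edgeR adjusted p = 0.000228). Against the variance that counting alone gives, the control libraries differed from each other 3.85 times as much, the LINC01432 LNA libraries 12.4 times and libraries of unlike groups 18.2 to 35.9 times. Of 10 plasma cell and myeloma markers, 9 were above 50 CPM in every library, with a summed level of 4301 and 4803 CPM with control LNA and 3896 and 5735 CPM with LINC01432 LNA. IGLC2, a light chain gene, made up much of that spread, with 1258 and 2743 CPM in the LINC01432 LNA libraries. Of these markers CD38 rose (log2 fold change 0.72, edgeR adjusted p = 0.000434), and TNFRSF17 and XBP1 fell by 0.53 and 0.35 on the log2 scale (edgeR adjusted p = 0.00158 and 0.0159). The 8 markers of other cell types summed to 105 to 121 CPM, nearly all of it from the epithelial genes EPCAM and KRT18. Of the myeloid markers, LYZ was listed at 0 in each library, while CD14 lay between 2.11 and 3.60 CPM (log2 fold change 0.52, edgeR adjusted p = 0.167). CD3E of T cells lay between 0.285 and 0.514 CPM, NKG7 between 0.0685 and 0.244 and PECAM1 between 1.71 and 2.65. COL1A1 of fibroblasts rose, from 1.82 and 2.44 to 3.44 and 4.19 CPM (log2 fold change 0.86, edgeR adjusted p = 0.0272), and was not called after GC correction (edgeR adjusted p = 0.0860) or without control library 1. XBP1 was not called without either control library. The part of these markers in the results below was not tested.

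Most ribosomal protein genes showed no difference past the test. With LINC01432 LNA 5 rose (RPLP2, RPLP1, RPL39L, RPL13 and RPL8), 1 fell (RPL7) and 78 did not pass (edgeR quasi-likelihood test, adjusted p under 0.05). The called genes made up 7.14% of the 84, against 11.9% of all 18680 genes tested, where 7.5% rose and 4.37% fell. The median log2 fold change was -0.03 against 0.01 for all genes tested, with a range from -0.41 to 1.03. Both LINC01432 LNA libraries lay above both controls for 12 of the genes and below both for 27, while 45 overlapped. The 46.4% without overlap compare with 54.1% of all genes tested, of which 28.2% were higher and 25.9% lower.

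**Figure D1:**
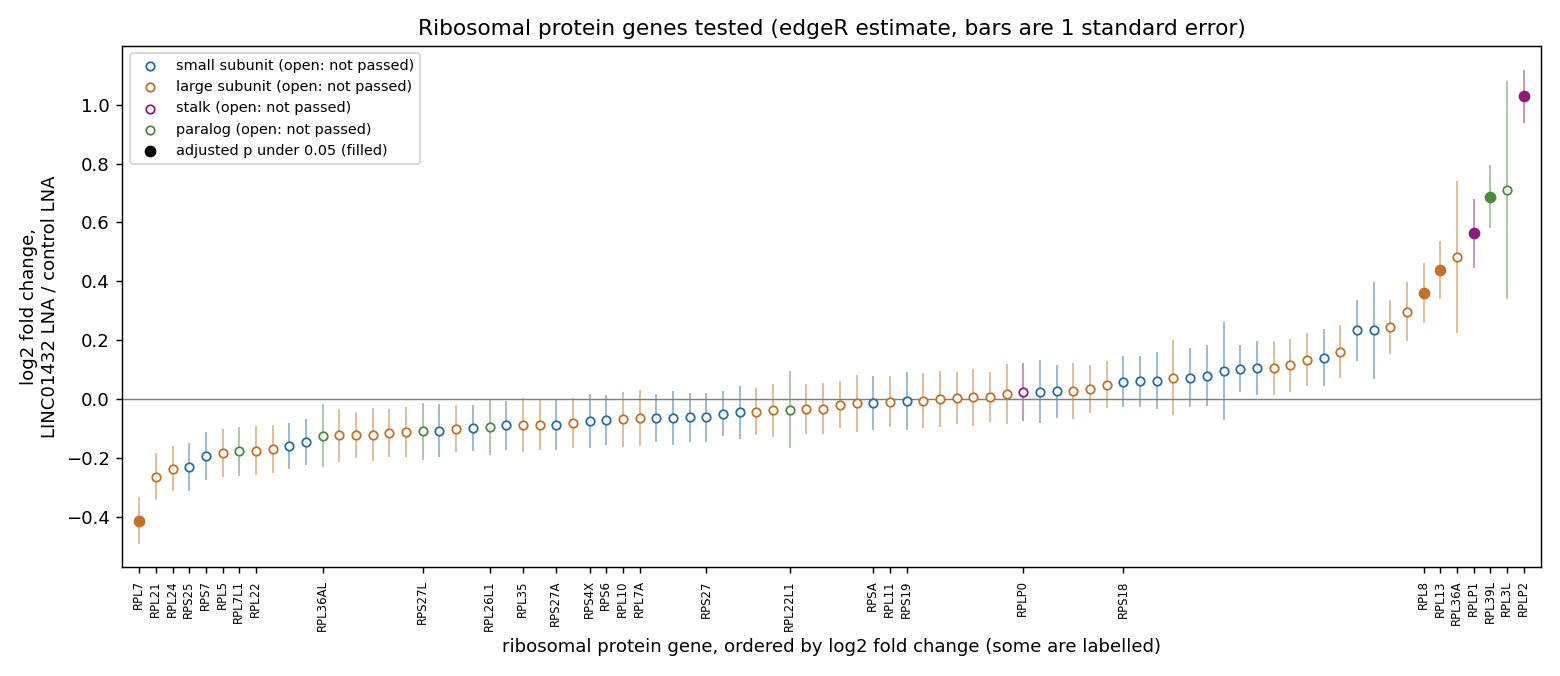
The log2 fold change (vertical axis, LINC01432 LNA over control LNA, with its standard error as a bar) of the 84 tested ribosomal protein genes in order of size, coloured by class, with part of the names on the horizontal axis, filled where the edgeR adjusted p was under 0.05. Most points lie close to 0, while RPLP2 at 1.03, RPL3L at 0.71 (not called, with a long bar), RPL39L at 0.69 and RPLP1 at 0.56 stand out upward and RPL7 at -0.41 downward.

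The counts depended on the libraries. With control library 1 left out only RPL39L and RPLP2 were called, both higher, beside 3.82% of all genes (2.82% higher, 0.996% lower). The same 2 genes were called with control library 2 left out, beside 5.27% of all genes (3.98% higher, 1.29% lower). With LINC01432 LNA library 1 left out, 23 ribosomal protein genes rose and 12 fell, beside 26.4% of all genes (13.3% higher, 13.1% lower). With library 2 left out, 9 rose and 39 fell, beside 21.6% of all genes (9.5% higher, 12.1% lower). Where a group keeps 1 library, the fit assumes that it varies as the complete pair does, and the control pair varied less.

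Of the 3 stalk genes RPLP2 and RPLP1 rose and RPLP0 did not pass. RPLP2, which encodes P2, had 228 and 250 CPM in the control libraries and 459 and 515 CPM in the LINC01432 LNA libraries. Both treated libraries were far above both controls, a rise from 239 ± 15.0 to 487 ± 39.6 CPM (SD, n = 2 libraries) or 2.04-fold. Its log2 fold change was 1.03 with an SE of 0.09 (edgeR adjusted p = 5.17e-05), the largest of all ribosomal protein genes, and it was called in each of the 15 alternative fits, at 0.93 to 1.09.

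RPLP1, which encodes the partner P1, had 2164 and 2418 CPM with control LNA and 2991 and 3780 CPM with LINC01432 LNA. The groups did not overlap, and the second treated library was well above the first. RPLP1 rose 1.48-fold, from 2291 ± 179 to 3385 ± 558 CPM (SD, n = 2), with a log2 fold change of 0.56 and an SE of 0.12 (edgeR adjusted p = 0.00989). The log2 fold change was 0.37 when LINC01432 LNA library 2 was left out, and without control library 1 it was 0.47 and not called (edgeR adjusted p = 0.293). Without control library 2 it was 0.63 and not called either (edgeR adjusted p = 0.0644).

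RPLP0, the anchor of the stalk, had 3154 and 3124 CPM with control LNA and 2957 and 3421 CPM with LINC01432 LNA. One treated library lay below and the other above the controls, and the log2 fold change of 0.02 (SE 0.10) did not pass (edgeR adjusted p = 0.923). With LINC01432 LNA library 1 left out it was 0.11 and called (edgeR adjusted p = 0.0196), and with library 2 left out it was -0.10 (edgeR adjusted p = 0.0599). Per kilobase of the principal transcript, the mean level over the 4 libraries was 2517 CPM for RPLP0, 2371 for RPLP1 and 512 for RPLP2. The stalk genes held 0.555% and 0.581% of the control libraries' counts and 0.660% and 0.745% of the LINC01432 LNA libraries' counts (two-sided exact permutation p = 0.333, the smallest that 2 against 2 libraries can give).

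**Figure D2:**
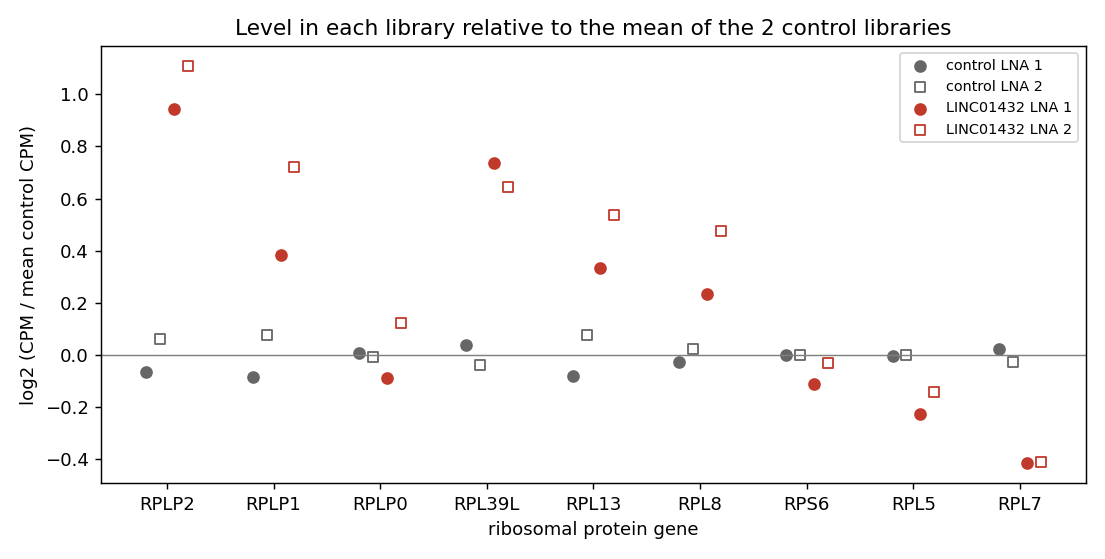
The log2 ratio of the CPM in each of the 4 libraries to the mean of the control libraries (vertical axis) for the 6 called ribosomal protein genes and, for comparison, RPLP0, RPS6 and RPL5, grey for control LNA and red for LINC01432 LNA, circles for library 1 and squares for library 2. Both red points of RPLP2 lie far above 0 and both of RPL7 below it, while those of RPLP0 lie on both sides of the control points.

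Of the 12.3% of RPLP2's exonic bases that overlap other genes, some belong to the snoRNA gene SNORA52 and some to PIDD1, a death-domain gene on the opposite strand. SNORA52 was listed at 0 in each library. PIDD1 had 8.77 and 11.2 CPM with control LNA and 13.7 and 12.9 CPM with LINC01432 LNA (log2 fold change 0.42, edgeR adjusted p = 0.0611). These levels are far under those of RPLP2. How reads in the shared bases were assigned is not given, and their part in the level of RPLP2 was not tested. The pseudogenes of RPLP2 held 0.00560% of the counts of its family and those of RPLP1 0.00637%, and neither RPLP0 nor RPLP1 has exons that overlap another gene.

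In the large subunit, 2 of 43 genes rose, 1 fell and 40 did not pass (6.98% called, against 11.9% of all genes tested). Their median log2 fold change was -0.02. RPL13 had 758 and 844 CPM in the control libraries and 1009 and 1163 CPM with LINC01432 LNA. The groups did not overlap, and it rose 1.36-fold (log2 fold change 0.44, SE 0.10, edgeR adjusted p = 0.0140). RPL8, which lies close to the peptidyl transferase centre of the ribosome, had 2198 and 2277 CPM with control LNA and 2633 and 3110 CPM with LINC01432 LNA. It rose 1.28-fold (log2 fold change 0.36, SE 0.10, edgeR adjusted p = 0.0403), and without LINC01432 LNA library 2 its log2 fold change was 0.22. Neither gene was called without either control library (edgeR adjusted p = 0.478 and 0.149 for RPL13, 0.592 and 0.447 for RPL8).

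RPL7, an RNA-binding protein of the large subunit, was the gene that fell. It had 443 and 428 CPM in the control libraries and 327 and 327 CPM in the LINC01432 LNA libraries. Within each group the values were close, and the treated level was 0.751 of the control level (log2 fold change -0.41, SE 0.08, edgeR adjusted p = 0.00597). Without control library 1 its log2 fold change was -0.41 (edgeR adjusted p = 0.263) and without control library 2 it was -0.45 (edgeR adjusted p = 0.162), so the size stayed close while the call was lost. RPL7 pseudogenes held 17.3% of the counts of its family. With pseudogene counts summed into each gene before the fit, RPL7 and the other 5 called genes were still called.

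Just outside the threshold lay RPL21 and RPL24. RPL21 had 235 and 234 CPM with control LNA and 187 and 204 with LINC01432 LNA (log2 fold change -0.26, edgeR adjusted p = 0.0576). RPL24 had 279 and 285 CPM against 238 and 240 (log2 fold change -0.24, edgeR adjusted p = 0.0717). The DESeq2 Wald test, which called 8.73% of all genes, called both of them lower. In both the groups did not overlap, nor did they for RPL27A, which was higher (log2 fold change 0.24, edgeR adjusted p = 0.118).

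RPL5 and RPL11 travel with the 5S ribosomal RNA and, when ribosome assembly fails, bind the ubiquitin ligase MDM2. RPL5 had 643 and 645 CPM with control LNA and 550 and 584 with LINC01432 LNA (log2 fold change -0.18, edgeR adjusted p = 0.184). RPL11 had 1301 and 1335 CPM against 1258 and 1361, which overlap (log2 fold change -0.01, edgeR adjusted p = 0.964). RPL10, which joins the large subunit late in its assembly, had 1116 and 1127 CPM against 989 and 1147 (edgeR adjusted p = 0.713). Of its exonic bases 55.5% overlap other genes, mostly on the opposite strand, DNASE1L1 among them. RPL22, which also binds other RNAs, stood at 33.4 and 32.9 CPM against 29.7 and 29.1 (log2 fold change -0.18, edgeR adjusted p = 0.211).

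No gene of the small subunit was called among 31 tested (edgeR), against 11.9% of all genes. DESeq2, which called 8.73% of all genes, called 0, as did limma-voom, which called 1369 higher and 805 lower among all genes. At an unadjusted p under 0.05, 1 small subunit gene was higher and 2 lower. The share of all genes under that unadjusted p is not given, so counts at it are descriptions, here and for the lists below. Small subunit log2 fold changes ran from -0.23 to 0.23 with a median of -0.04. The lowest was RPS25, a protein that some viral internal ribosome entry sites need, with 467 and 492 CPM in the control libraries and 423 and 394 CPM in the LINC01432 LNA libraries. These groups did not overlap, but the difference of -0.23 (SE 0.08) did not pass (edgeR adjusted p = 0.0983). RPS7 had 462 and 477 CPM against 424 and 398 (log2 fold change -0.19, edgeR adjusted p = 0.161). The small subunit accounted for 5 of the 12 falls and 8 of the 23 rises without LINC01432 LNA library 1, and for 16 of the 39 falls without library 2.

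Small subunit genes with well known roles had fold changes near 0. RPS6, the target of the S6 kinases, had 1366 and 1364 CPM with control LNA and 1263 and 1338 with LINC01432 LNA (log2 fold change -0.07, edgeR adjusted p = 0.676). RPS19, often mutated in Diamond-Blackfan anaemia, had 653 and 662 CPM against 592 and 717 (log2 fold change -0.01, edgeR adjusted p = 0.977). RPS4X, the X-linked form of its protein, had 1154 and 1163 CPM against 1025 and 1174 (log2 fold change -0.08, edgeR adjusted p = 0.678). The treated values of RPS19 and RPS4X lay on both sides of the controls. RPSA, also known as a laminin receptor, had 1149 and 1121 CPM against 1055 and 1195 (log2 fold change -0.01, edgeR adjusted p = 0.953). RPS27A, which is made fused to ubiquitin, had 593 and 591 CPM against 527 and 588 (log2 fold change -0.09, edgeR adjusted p = 0.588), and RPS27 had a log2 fold change of -0.06 (edgeR adjusted p = 0.711).

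Paralogs are second copies of a ribosomal protein gene, some of them made mainly in 1 tissue. Of the 8 here, 7 were tested, 1 rose and 6 did not pass, and the median log2 fold change was -0.10. The 14.3% called compare with 11.9% of all genes tested. RPL39L, the copy of the exit tunnel protein RPL39 that is known from testis, had 9.94 and 9.43 CPM in the control libraries and 16.1 and 15.1 CPM with LINC01432 LNA. Its replicates were close and the groups lay apart, a rise of 1.61-fold (log2 fold change 0.69, SE 0.11, edgeR adjusted p = 0.00187). It was called in each of the 15 alternative fits, at 0.62 to 0.72. RPL39 itself had 369 and 380 CPM against 370 and 357 (log2 fold change -0.04, edgeR adjusted p = 0.796). Per kilobase of transcript, the mean level of RPL39L was 16.9 CPM and that of RPL39 was 920 CPM.

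RPL3L, the striated muscle form of RPL3, had 0.548 and 0.488 CPM with control LNA and 0.791 and 0.909 with LINC01432 LNA, from 12 to 23 counts a library. Its log2 fold change of 0.71 had an SE of 0.37 and did not pass (edgeR adjusted p = 0.264). RPL7L1 had 166 and 171 CPM against 140 and 158 (log2 fold change -0.18, edgeR adjusted p = 0.212). RPL22L1, RPL26L1, RPL36AL and RPS27L had log2 fold changes of -0.04, -0.10, -0.12 and -0.11, and none passed. RPL10L, the testis copy of RPL10, was not tested.

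Ribosomal protein genes as a whole took 6.12% and 6.24% of the counts of the control libraries and 6.15% and 6.52% of those of the LINC01432 LNA libraries. The means of 6.18% ± 0.0859 and 6.33% ± 0.258 (SD, n = 2) did not differ beyond the spread of the treated pair (two-sided exact permutation p = 0.667, where 0.333 is the smallest possible). The share of the large subunit was 3.29% and 3.36% with control LNA against 3.28% and 3.44%, and that of the small subunit 2.24% and 2.25% against 2.18% and 2.30%. Per kilobase of transcript, the highest mean levels over the 4 libraries were those of RPL35 with 2673 CPM, RPL8 and RPLP0 with 2517 each, RPL7A with 2438, RPLP1 with 2371 and RPS18 with 2342. Of these RPL8 and RPLP1 rose, and RPL35, RPL7A and RPS18 had log2 fold changes of -0.09, -0.07 and 0.06 that did not pass. The lowest was RPL3L with 0.313 CPM per kilobase. These ranks depend on the annotated length used, which was 455 bases for RPL35 and 7686 for RPL37, the latter at 95.4 CPM per kilobase.

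The LINC01432 LNA libraries placed these genes on different sides of the controls. In library 1 the median ribosomal protein gene was -0.11 on the log2 scale from the control mean, with 21 genes above and 63 below. In library 2 the median was 0.04, with 49 genes above and 35 below. In the control libraries it was -0.01 and 0.01, values that nearly mirror each other because each control library is part of that mean. Over all genes tested the median was 0.01 in both LINC01432 LNA libraries and 0.00 in both control libraries. The control values are therefore no independent measure of scatter. The median log2 fold change of -0.03 was 0.02 without LINC01432 LNA library 1 and -0.12 without library 2.

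**Figure D3:**
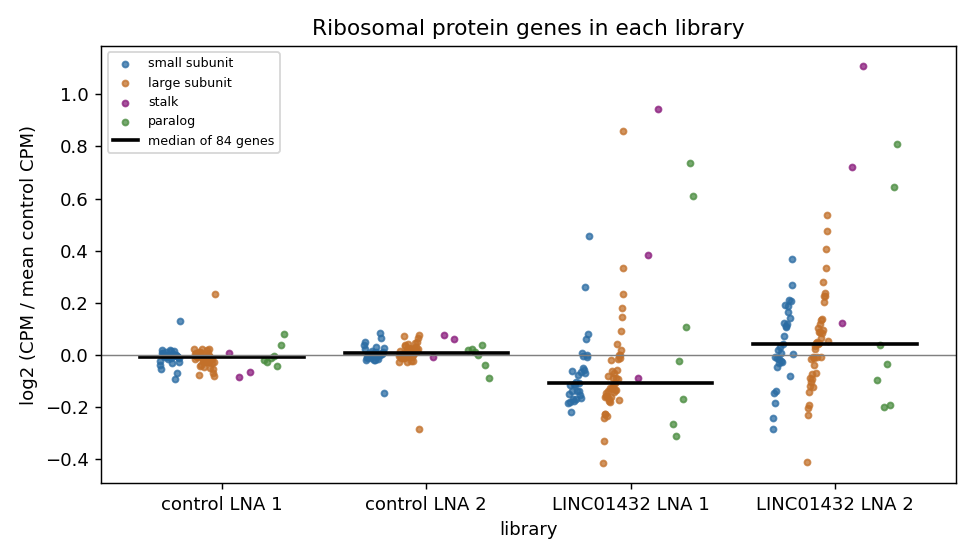
The log2 ratio of each tested ribosomal protein gene to its mean over the control libraries (vertical axis), for each of the 4 libraries, with the median over the genes as a bar. LINC01432 LNA library 1 has its median at -0.11 and library 2 at 0.04, while single genes such as RPLP2 are high in both.

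Fold changes of ribosomal protein genes followed the GC content of their transcripts, as they did for genes in general. Across the 84 genes, which share the same libraries and are not independent, Spearman's correlation of log2 fold change with GC content was 0.542, against 0.393 over 17060 genes with a known GC content. The 19 genes with at least 55% GC had a median of 0.08, with 14 positive and 5 negative values, and the 65 below had a median of -0.06. In all genes tested the medians of these ranges were 0.18 and -0.05. After a correction of each library for its trend with GC content, the correlation over the 84 genes was 0.034, and 4 rose and 1 fell (9.93% of all genes called, 4.76% higher and 5.17% lower).

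The gene called before and not after this correction was RPL8, with 61.0% GC and a corrected log2 fold change of 0.14 (edgeR adjusted p = 0.283). RPLP2 kept 0.93 (edgeR adjusted p = 6.37e-05), RPLP1 0.57 (edgeR adjusted p = 0.00779) and RPL39L 0.71 (edgeR adjusted p = 0.00147). RPL13, with 58.5% GC, moved from 0.44 to 0.33 (edgeR adjusted p = 0.0231), and RPL7, with 43.5% GC, from -0.41 to -0.33 (edgeR adjusted p = 0.00950). RPS15, with 62.1% GC, moved from 0.23 to -0.05. With transcript length in place of GC content the Spearman correlation was -0.132.

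**Figure D4:**
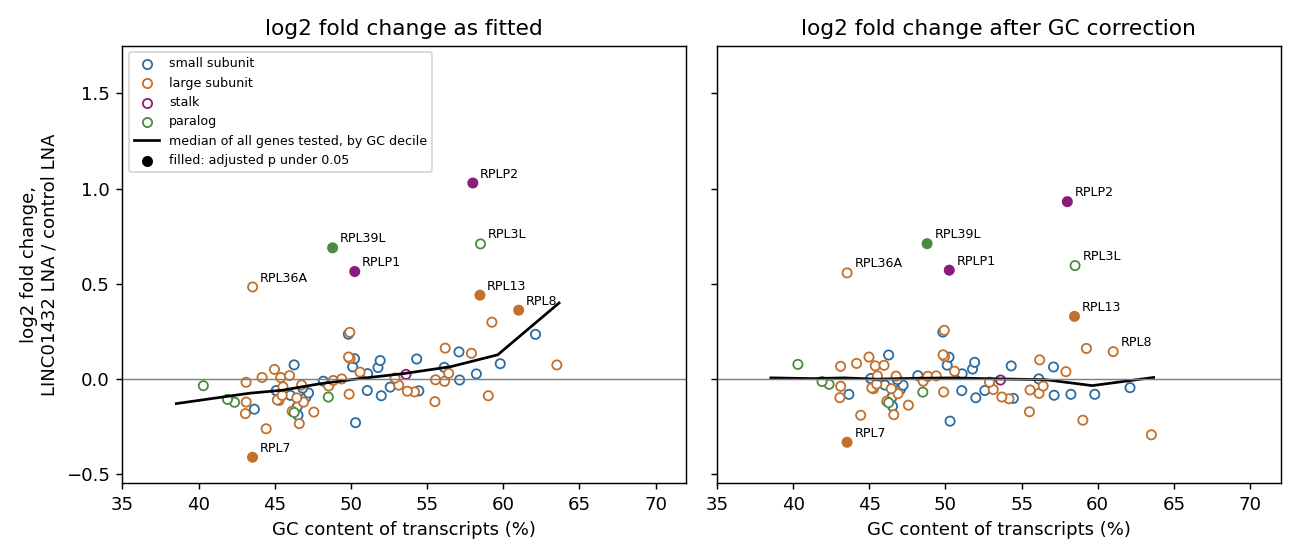
The log2 fold change (vertical axis) against the GC content of the transcripts in percent (horizontal axis) for ribosomal protein genes as fitted (left) and after GC correction (right), filled where the adjusted p was under 0.05, with a line for the median of all genes tested by decile of GC. The line climbs with GC on the left and is flat on the right, and RPLP2, RPLP1, RPL39L and RPL13 stay above it in both.

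Ribosomal protein genes have many processed pseudogenes, near copies that can share their reads. The table held 1600 rows named as such pseudogenes, of which 598 had 0 counts in each library. Of the 371 tested, 1 rose and 1 fell (0.539%), and the median log2 fold change was 0.01. For 3 genes the pseudogenes held most of the family's counts: 96.6% for RPL36A, 91.0% for RPL17 and 85.5% for RPS10. RPL36A had 4.08 and 2.85 CPM with control LNA and 6.28 and 3.60 with LINC01432 LNA, which overlap (log2 fold change 0.48, SE 0.26, edgeR adjusted p = 0.277). Summed with its pseudogenes it had a log2 fold change of 0.06 (edgeR adjusted p = 0.722). With LINC01432 LNA library 1 left out that of RPL36A alone was 0.02, and with library 2 left out it was 0.82 and called (edgeR adjusted p = 0.000335). RPL17 and RPS10 had log2 fold changes of 0.02 and 0.10. These 3 genes also share exons with the readthrough genes RPL36A-HNRNPH2, RPL17-C18orf32 and RPS10-NUDT3, each listed at 0, so their own levels are uncertain.

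Ribosomal components whose symbols fall outside the rule did not pass either. FAU, which encodes a ribosomal protein fused to a ubiquitin-like protein, had a log2 fold change of 0.06 (edgeR adjusted p = 0.746). RACK1, a signalling scaffold on the small subunit, had a log2 fold change of -0.03 (edgeR adjusted p = 0.883). Of 19 translation factor and other protein-coding genes known for TOP messages, 18 were tested and 0 were called (edgeR; 0 higher and 3 lower at an unadjusted p under 0.05, and 1 lower by DESeq2 and by limma-voom). Over all genes tested 11.9% were called. The median log2 fold change of this list was -0.09. EIF4B, which helps unwind messages before translation, had 584 and 567 CPM against 480 and 478 (log2 fold change -0.26, edgeR adjusted p = 0.0538). EEF1A1 and EEF2, the main elongation factors, had log2 fold changes of -0.16 and 0.15. EEF1G was listed at 0 in each library, while EEF1B2 of the same list had 562 and 555 CPM against 530 and 592. Whether that 0 reflects how the gene was counted was not tested.

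Some noncoding RNAs also begin with a TOP motif, and most of these carry snoRNAs in their introns. Among 10 of them 5 rose, 0 fell and 5 failed the test (edgeR), beside 7.5% of all genes higher and 4.37% lower. The median log2 fold change of the 10 was 0.41. At an unadjusted p under 0.05, 6 were higher and 0 lower, and DESeq2 and limma-voom each called 5 higher and 0 lower. The list was chosen with earlier results of these data known. SNHG8 had 19.2 and 20.1 CPM with control LNA and 32.1 and 31.6 with LINC01432 LNA (log2 fold change 0.70, SE 0.09, edgeR adjusted p = 0.000464). SNHG1 had 28.0 and 27.1 CPM against 39.7 and 41.2 (log2 fold change 0.56, SE 0.08, edgeR adjusted p = 0.00148). In both the groups lay well apart. ZFAS1 had 15.6 and 17.4 CPM against 25.2 and 22.7 (log2 fold change 0.54, SE 0.10, edgeR adjusted p = 0.00520). SNHG12 and GAS5 rose as well, by log2 fold changes of 0.56 and 0.36 (edgeR adjusted p = 0.00444 and 0.0374), and that of GAS5 was 0.19 with LINC01432 LNA library 1 left out. After GC correction 5 rose, and without control library 1 only SNHG1 and SNHG8 were called. SNHG29 and SNHG6 stood at log2 fold changes of -0.02 and 0.01.

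**Figure D5:**
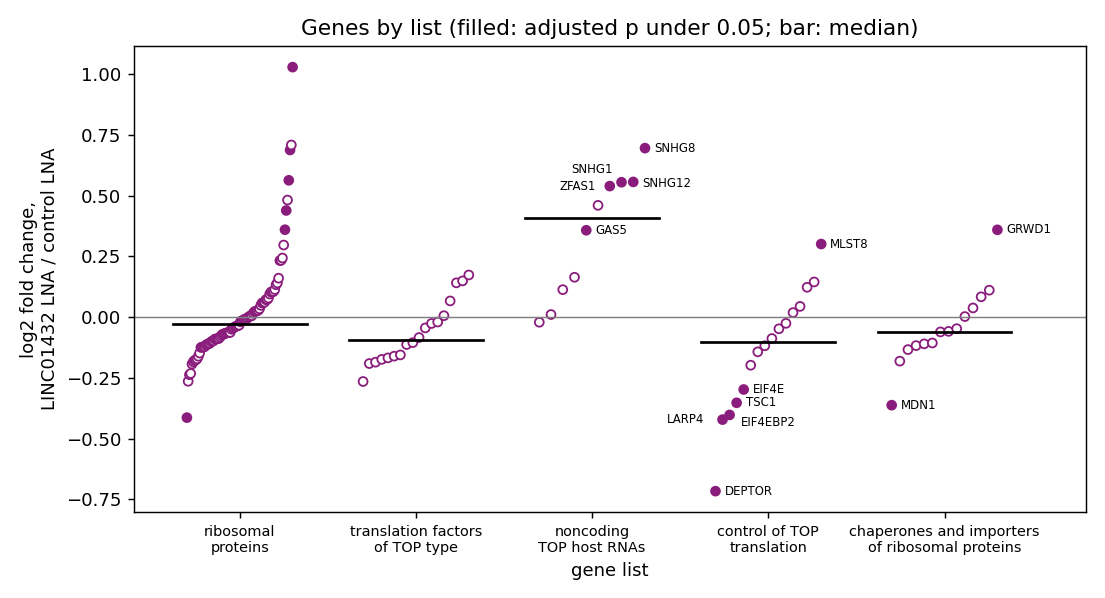
The log2 fold change (vertical axis, LINC01432 LNA over control LNA) of each tested gene in 5 lists, filled where the edgeR adjusted p was under 0.05, with the median as a bar. The noncoding TOP RNAs have their median at 0.41 and the ribosomal proteins at -0.03, and DEPTOR at -0.72 is the lowest point.

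Of 16 genes that control TOP translation through mTOR and its partners, 1 rose, 5 fell and 10 did not pass. Of all genes tested, 7.5% rose and 4.37% fell. The median log2 fold change of the 16 genes was -0.10. DEPTOR, an inhibitory partner of mTOR that many myeloma cells make in large amounts, had 204 and 206 CPM in the control libraries and 127 and 122 CPM in those with LINC01432 LNA. The values were close within each group, and it fell 1.64-fold (log2 fold change -0.72, SE 0.08, edgeR adjusted p = 0.000197). LARP4, which protects poly(A) tails, EIF4EBP2, a repressor of EIF4E, TSC1, a brake on mTOR, and EIF4E, the cap-binding protein, fell by 0.42, 0.40, 0.35 and 0.30 on the log2 scale (edgeR adjusted p = 0.00750, 0.0107, 0.0212 and 0.0348). Inhibitors of the pathway (DEPTOR, TSC1, EIF4EBP2) and the factor that EIF4EBP2 represses were thus both among the falls. LARP1 itself had 1090 and 1053 CPM against 1029 and 988 (log2 fold change -0.09, edgeR adjusted p = 0.576), and MTOR had a log2 fold change of -0.05. MLST8, a subunit of mTOR complexes, rose by 0.30 (edgeR adjusted p = 0.0385) and stood at 0.20 with LINC01432 LNA library 2 left out and at -0.04 after GC correction. EIF4E was not called after that correction (edgeR adjusted p = 0.134). EIF4EBP1 moved from 0.04 to -0.27 with it and was called lower (edgeR adjusted p = 0.0348), so that 5 of the 16 were again lower. Without either control library only DEPTOR was called.

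Chaperones and importers carry new ribosomal proteins to the nucleus and into assembling subunits. Of 14 tested, 1 rose and 1 fell, beside 7.5% of all genes higher and 4.37% lower. GRWD1, the chaperone of RPL3, rose (log2 fold change 0.36, edgeR adjusted p = 0.0455), and MDN1, a large ATPase that remodels assembling large subunits, fell by 0.36 on the log2 scale (edgeR adjusted p = 0.0479). Neither was called after GC correction or without either control library. With LINC01432 LNA library 2 left out GRWD1 stood at 0.17 and MDN1 at -0.22, and with library 1 left out MDN1 stood at -0.56. Of 9 genes of the 5S particle and MDM2 checkpoint, RPL5 and RPL11 among them, 1 rose and 0 fell (edgeR; 2 higher and 2 lower at an unadjusted p under 0.05, and 1 higher and 0 lower by DESeq2 and limma-voom). Among all genes tested, 7.5% rose and 4.37% fell. The checkpoint gene that rose was CDKN2A, whose product ARF binds MDM2, with 58.6 and 62.8 CPM against 74.4 and 95.3 (log2 fold change 0.49, edgeR adjusted p = 0.0149). It was not called after GC correction (edgeR adjusted p = 0.0673) or without control library 1, and stood at 0.28 with LINC01432 LNA library 2 left out. MDM2 had a log2 fold change of -0.02. Of 10 ribosomal protein genes mutated in Diamond-Blackfan anaemia, a failure of red cell formation, 0 were called (edgeR, against 11.9% of all genes). Their median was -0.08. At an unadjusted p under 0.05, 0 were higher and 2 lower, and DESeq2 and limma-voom called 0.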

How the data were processed

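RNA of 4 libraries was sequenced, and the deposited table holds whole-number read counts per gene, not normalized, made with STAR 2.7.11b, featureCounts 2.0.8 and Salmon 1.10.0 on GRCh38 per the submitters' processing notes, which give no roles. The series text names poly(A) selection and the labels' protocol removal of ribosomal RNA. The strand setting of the counting was not given in the sources used here, nor its annotation release, so reads of overlapping or copied genes may have been split or pooled. Left out were 92 spike-in and 5 transgene rows (at most 4.2e-05% of a library). Symbols were matched for 61481 gene IDs and exons, GC content and length for 57356 in GENCODE 29, all 85 members included.

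Counts were tested with edgeR 4.0.16 in R 4.3.3 (TMM, filterByExpr with minimum count 10, quasi-likelihood F test, Benjamini-Hochberg over 18680 genes, called under 0.05). SEs were derived from the F statistic. CPM use TMM-scaled library sizes, and levels per kilobase the APPRIS principal transcript. Where several transcripts shared the best rank, their median length was used, so levels per kilobase depend on the annotation. Alternatives were limma 3.58.1 voom, DESeq2 1.42.0, other scalings and filters, each library left out, the replicate block, pseudogenes summed, fits that leave out genes of structured, mitochondrial or immunoglobulin RNA, and a per-library lowess correction for GC content (span 0.3). The edgeR step was tested on simulated data. Genes were named by a rule: every called member, the 6 most abundant per kilobase, the 5 highest and 5 lowest log2 fold changes, all paralogs, members with well known roles and, of the other lists, called genes and up to 4 with the smallest p. RPL27A, RPL39, RPS15, RPL17, RPS10 and some further genes of the lists were named after their values were seen. Members and lists were chosen with earlier results of these data known.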

Additional observations from a re-analysis of the deposited data

How the results depend on the processing

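The 6 called ribosomal protein genes kept their direction in all 15 alternative fits. RPLP2 and RPL39L were called in 15, RPLP1, RPL13 and RPL7 in 13, and RPL8 in 10. With each library left out in turn, ribosomal protein genes called ranged from 2 to 23 higher and from 0 to 39 lower, and all genes from 566 to 2637 higher and from 200 to 2591 lower. The same ranges were 0 to 8 higher and 0 to 16 lower in the small subunit, 0 to 11 higher and 0 to 21 lower in the large subunit, 1 to 3 stalk genes higher and 0 to 2 paralogs lower. They were 2 to 6 noncoding TOP RNAs higher, 0 to 3 TOP control genes higher and 1 to 7 lower, 0 to 2 translation factor genes higher and 0 to 9 lower, and 0 to 2 components outside the rule in each direction. They were 0 to 1 chaperones and importers higher and 0 to 3 lower, 0 to 2 checkpoint genes higher and 0 to 3 lower, and 0 to 1 Diamond-Blackfan genes higher and 0 to 6 lower.

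Genes called lower, 1 in the fit reported and of the large subunit, were 3 with library totals only and with DESeq2, and 2 with no filter, with at least 1 CPM in every library, with limma-voom and with structured, mitochondrial and immunoglobulin RNA left out. Ribosomal protein genes called higher, 5 in the fit reported, were 6 with library totals only, no filter or DESeq2. They were 4 with median-of-ratios scaling or GC correction. Large subunit genes called higher were 3 with DESeq2 and 1 with median-of-ratios scaling or GC correction. Translation factor genes called lower were 1 with library totals only, no filter, DESeq2, limma-voom, GC correction or the smaller gene set, and 1 was higher with GC correction. TOP control genes called higher were 0 with median-of-ratios scaling or GC correction. Chaperones and importers called higher were 0 with either of these, and called lower 0 with library totals only, at least 1 CPM or GC correction. Checkpoint genes called higher were 0 with GC correction, and all genes called higher were 889.

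Libraries with the same number shared only that number in the labels. Their deviations from the group means correlated at 0.135 over all genes and 0.558 over the ribosomal protein genes. With the replicate number as a block, 7 ribosomal protein genes were higher and 4 lower, of them 4 higher and 3 lower in the large subunit and 1 lower in the small subunit. All genes called were then 2245 higher and 1617 lower, checkpoint genes 2 higher and translation factor genes 1 lower. With the replicate block and GC correction together, ribosomal protein genes were 6 higher and 7 lower, 6 of the latter in the large and 1 in the small subunit, and 1943 of all genes were lower. Translation factor genes were then 1 higher and 3 lower, TOP control genes 0 higher, and chaperones and importers 2 higher and 2 lower.

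Among the 31 tested ribosomal protein genes named by the rule, signs changed for 10, all of them not called in the fit reported. With at least 1 CPM required, log2 fold changes turned to 0.0071 for RPL11, 0.0091 for RPS19 and 0.0032 for RPSA. With GC correction they turned to 0.012 for RPL11, 0.075 for RPL22L1, -0.0073 for RPLP0 and 0.016 for RPSA, and with the replicate block as well to 0.011, 0.076, -0.0094 and 0.013. With each library left out in turn the log2 fold changes ranged from -0.20 to 0.016 for RPL10, -0.086 to 0.029 for RPL11, -0.21 to 0.094 for RPL22L1, -0.33 to 0.022 for RPL36AL, -0.18 to 0.0064 for RPL7A, -0.10 to 0.11 for RPLP0, -0.0098 to 0.090 for RPS18, -0.17 to 0.11 for RPS19, -0.19 to 0.0017 for RPS4X and -0.12 to 0.057 for RPSA. Signs also changed for ribosomal protein genes outside that rule. With GC correction RPS15 went from 0.23 to -0.05, RPL39 from -0.04 to 0.01, RPL13A from 0.03 to -0.04 and RPS2 from 0.08 to -0.08. The causes were not tested.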
